A study of Caenorhabditis elegans with 2 samples.

Results

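The regions described here lie in the domains of chromosome IV that are dense in piRNA genes, in maps of the DNA bound by a tagged zinc finger protein of the nematode Caenorhabditis elegans. A region was counted in if its summit, the position the lists give as its point of strongest signal, lay on chromosome IV between 4500 and 7000 kb (the left domain) or between 13500 and 17200 kb (the right domain). This gave 1431 of the 22595 regions listed for replicate 1, with 619 in the left domain and 812 in the right. It gave 1584 of 22358 regions for replicate 2, with 645 on the left and 939 on the right. In the list called on both replicates pooled, 179 of 2689 regions were members, 81 on the left and 98 on the right. Among the 198 peaks that the authors kept after comparing replicates by irreproducible discovery rate (IDR), 14 lay in the domains.

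All worms were of strain OP532, with the genotype unc-119(tm4063) III and the integrated transgene wgIs532, which makes Y116A8C.19 with GFP and FLAG at its C-terminal end. Chromatin of whole hermaphrodite L1 larvae, taken 6 h after synchronization by starvation, was sonicated and precipitated with an antibody against GFP. Both biological replicates, 2 in all, belong to the same group and no other condition was studied, so densities were compared between stretches of the genome within each list. The transgene adds copies of the tagged gene, and a whole larva mixes all its cell types. The replicate and pooled lists hold peaks together with background, since they were made as input for the IDR comparison.

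In C. elegans, piRNAs are very short RNAs that guide the Argonaute protein PRG-1 to foreign and transposon transcripts, mainly in the germline. Most are made from tiny separate genes, each read by RNA polymerase II from its own start, and many of these starts follow a shared upstream motif with the core CTGTTTCA. The genes crowd into broad domains of chromosome IV, often inside introns and between protein-coding genes, and the factors PRDE-1, SNPC-4, TOFU-4 and TOFU-5 act on their transcription. In the Ensembl annotation the domains span 6.2 Mb and hold 14204 of the 14714 piRNA genes of chromosome IV and of the 15363 in the genome. The left domain has 1126 piRNA genes per Mb and the right domain 3078, against 45.2 in the rest of the chromosome. Protein-coding genes are sparser in the domains, with 152 per Mb against 207.

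Sequences of 150 bp around 6 pooled summits show the kinds of DNA these regions cover. They come from the RefSeq genome, build WBcel235 (ce11), plus strand. Capitals mark matches with up to 1 mismatch, on either strand, to GAGTACAC and CTAGGCCA, a pair of 8-base elements derived earlier from the odd-ranked IDR peaks of these same data. The windows at Y73B6BL.29 and, at its higher coordinates, Y65A5A.2 are the strongest IDR peaks of the left and right domain, and the other Y65A5A.2 window is a neighbouring peak in the same intron. The window at hda-6 is the strongest pooled region within 250 bp of a piRNA 5′ end. Of the windows upstream of Y105C5A.1, one is the IDR peak with the most piRNA genes around it and the other the pooled region with the most. The neighbouring Y65A5A.2 peak and the Y105C5A.1 IDR peak were chosen after their values were seen.
Y73B6BL.29 promoter, chrIV:6321815-6321964: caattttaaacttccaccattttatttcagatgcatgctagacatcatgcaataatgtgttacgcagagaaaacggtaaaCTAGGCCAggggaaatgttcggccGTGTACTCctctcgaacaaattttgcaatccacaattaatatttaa
Y65A5A.2 intron, chrIV:16415707-16415856: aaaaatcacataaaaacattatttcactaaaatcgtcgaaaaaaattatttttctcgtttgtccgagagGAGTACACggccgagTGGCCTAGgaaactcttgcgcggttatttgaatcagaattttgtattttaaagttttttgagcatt
Y65A5A.2 intron, chrIV:16415207-16415356: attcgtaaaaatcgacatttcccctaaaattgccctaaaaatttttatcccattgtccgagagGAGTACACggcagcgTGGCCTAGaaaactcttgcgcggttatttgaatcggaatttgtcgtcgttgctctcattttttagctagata
hda-6 promoter, chrIV:5364286-5364435: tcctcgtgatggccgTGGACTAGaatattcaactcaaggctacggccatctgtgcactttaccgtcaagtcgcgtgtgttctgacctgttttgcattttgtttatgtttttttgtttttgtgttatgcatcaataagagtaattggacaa
Y105C5A.1 upstream, chrIV:15570936-15571085: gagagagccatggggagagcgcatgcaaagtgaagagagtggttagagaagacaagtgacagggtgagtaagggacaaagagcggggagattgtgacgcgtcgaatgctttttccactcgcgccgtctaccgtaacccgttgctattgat
Y105C5A.1 upstream, most piRNA genes, chrIV:15568210-15568359: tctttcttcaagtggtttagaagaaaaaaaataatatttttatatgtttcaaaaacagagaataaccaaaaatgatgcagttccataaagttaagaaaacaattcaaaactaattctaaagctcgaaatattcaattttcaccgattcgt

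The windows in the Y65A5A.2 intron lie 500 bp apart and carry near copies of one stretch. Over 51 bases counted from 8 before the first element, 48 are the same. The longest run shared by the windows is 25 bases and reaches past the end of these 51. Reads from such copies can be hard to place, and how the authors treated them is not given in the sources used here. None of the 6 windows holds CTGTTTCA, which was searched only as an exact match, and the window with the most piRNA genes holds neither 8-base element.

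Over the whole domains, regions were listed at close to the density of the rest of the chromosome. Replicate 1 had 231 summits per Mb in the domains and 224 in the rest of chromosome IV, a ratio of 1.03 with a 95% interval of 0.966 to 1.10 (adjusted exact binomial p = 0.451). Replicate 2 had 255 against 219 per Mb, a ratio of 1.17 with an interval of 1.10 to 1.24 (adjusted exact binomial p = 1.06e-05). An excess was called only where both replicates passed an adjusted p of 0.05 in the same direction, so this one was not called. These two-sided tests compare a count with its share of the bases, and p-values were adjusted by the Benjamini-Hochberg method over 24 tests. They treat regions as independent, although 14.2% of the members in replicate 1 and 18.6% in replicate 2 overlap another region of their own list.

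The excess depended on which part of chromosome IV stood for the rest. Against the left end of the chromosome alone the ratio averaged 1.20 over both replicates and was called, with an adjusted exact binomial p of 0.00698 in the weaker replicate. Against the middle of the chromosome, between the domains, the ratio was 0.988 in replicate 1 and 1.12 in replicate 2 and was not called (weaker adjusted exact binomial p = 0.874). Just outside the left limit, the 500 kb from 4000 to 4500 kb held 180 summits per Mb in replicate 1 and 192 in replicate 2. Just inside it, the next 500 kb held 252 and 254. Farther out, however, the 500 kb from 3500 to 4000 kb held 256 and 212, with only 5 piRNA genes. In replicate 1 that window was thus as dense as the one just inside the limit. The step was smaller at the inner limits, with 248 and 246 per Mb before 7000 kb and 238 and 206 after it, and with 212 and 202 per Mb before 13500 kb and 214 and 232 after it. The number of piRNA genes in these windows went from 11 to 268 at the left limit, from 227 to 48 at 7000 kb, and from 11 to 1116 at 13500 kb.

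Along the domains, 12 windows of 500 kb held 160 to 316 summits per Mb in replicate 1 and 200 to 332 in replicate 2. The 22 windows of the rest held 170 to 264 and 178 to 258. The highest domain window in both lists was that from 14500 to 15000 kb, and the lowest was its neighbour from 15000 to 15500 kb, although these have 1799 and 1604 piRNA genes. Over the 12 windows the replicates ranked alike, with a Spearman correlation of 0.70. Against the number of piRNA genes the correlation was -0.11 in replicate 1 and 0.34 in replicate 2. These windows share their libraries and differ in base composition, so the correlations are descriptions. The left domain, which has fewer piRNA genes, was not the sparser of the pair. It had 248 summits per Mb against 219 on the right in replicate 1 (ratio 1.13, adjusted exact binomial p = 0.0506) and 258 against 254 in replicate 2 (ratio 1.02, adjusted exact binomial p = 0.835).

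Inside the domains, the DNA close to piRNA 5′ ends was richer in regions than the DNA farther away. Within 250 bp of such an end, replicate 1 had 254 summits per Mb against 208 farther away, a ratio of 1.22 with an interval of 1.10 to 1.36 (adjusted exact binomial p = 0.000593). Replicate 2 had 297 against 214, a ratio of 1.39 with an interval of 1.25 to 1.53 (adjusted exact binomial p = 1.38e-09). Both replicates passed, so the difference was called. It was larger when promoter windows of protein-coding genes were set aside, which reach 1000 bp upstream and 200 bp downstream of a 5′ end. Replicate 1 then had 254 against 191 per Mb (ratio 1.33, interval 1.18 to 1.50, adjusted exact binomial p = 1.06e-05). Replicate 2 had 293 against 198 (ratio 1.48, interval 1.32 to 1.66, adjusted exact binomial p = 1.03e-10).

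With promoters included, the call was lost in the left domain alone (mean ratio 1.23, weaker adjusted exact binomial p = 0.0756) and among regions that the other replicate overlapped (mean ratio 1.26, weaker adjusted exact binomial p = 0.057). Outside promoters, the call held in each domain alone. Replicate 1 had 287 against 219 summits per Mb in the left domain and 243 against 161 in the right, and replicate 2 had 297 against 218 and 292 against 176. It also held among regions that the other replicate overlapped, with ratios of 1.54 in replicate 1 and 1.37 in replicate 2. Regions kept in this way are largely the same sites in both lists, so these ratios are not independent of each other. With 100 bp in place of 250 bp the call was lost both with promoters (mean ratio 1.14, weaker adjusted exact binomial p = 0.328) and without them (mean ratio 1.20, weaker adjusted exact binomial p = 0.0747).

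**Figure D1:**
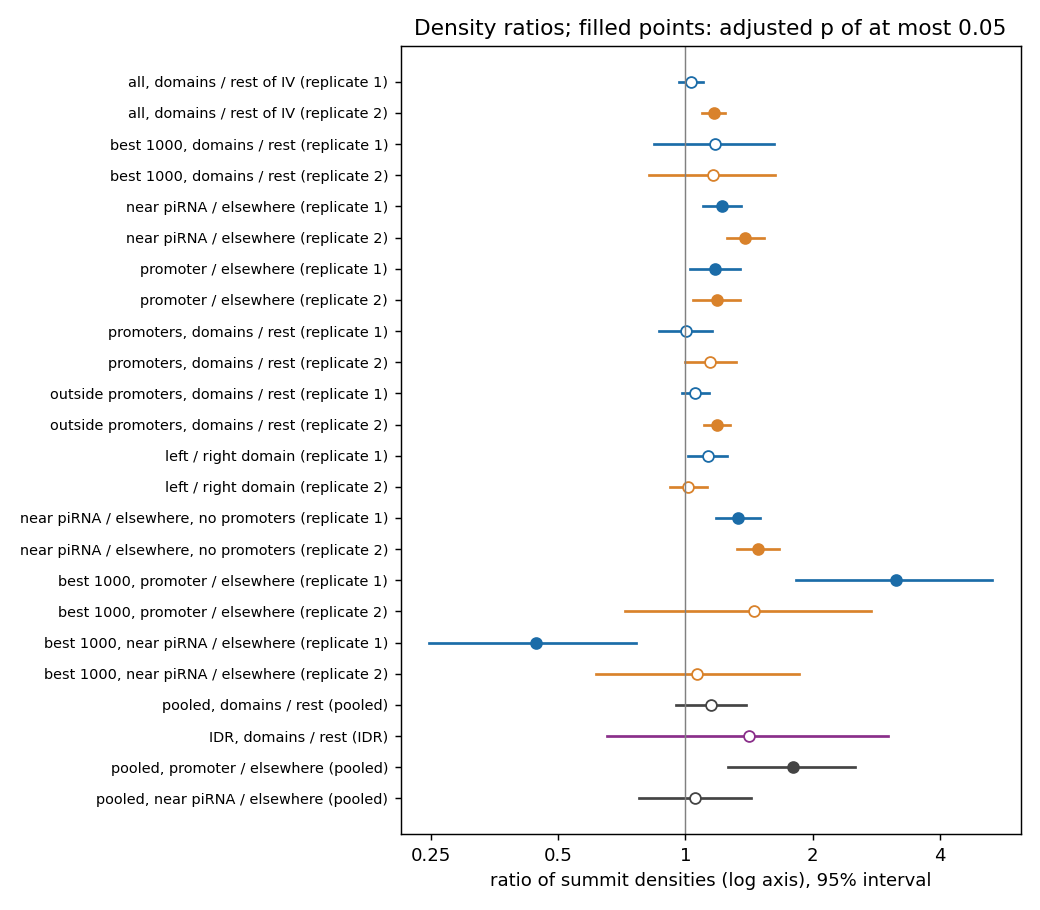
Ratios of summit densities between stretches of the genome (log axis) with exact 95% intervals, in replicate 1 (blue), replicate 2 (orange), the pooled list (black) and the IDR list (purple). The ratios near piRNA 5′ ends over all regions, 1.22 and 1.39, are filled as passing, while among the best 1000 regions replicate 1 lies at 0.443 and replicate 2 at 1.07.

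The higher density was a broad band and not a peak at the piRNA 5′ end. In replicate 1 the density was 263 per Mb within 50 bp, 215 from 50 to 100 bp, 271 from 100 to 250 bp and 241 from 250 to 500 bp. It was 176 from 500 to 1000 bp, 198 from 1000 to 2000 bp and 206 beyond 2000 bp. In replicate 2 the same bands held 289, 293, 307 and 278 per Mb out to 500 bp, then 204, 168 and 198. Both lists were lower beyond 500 bp. By side, replicate 1 was already down at 300 to 400 bp downstream of the 5′ end, with 164 per Mb, while 400 to 500 bp upstream it had 280. These values rest on 26 and 27 regions. Replicate 2 had 285 and 353 per Mb there, so it was not yet down at that downstream distance. Regions are 404 bp wide in replicate 1 and 420 bp in replicate 2. The lists cannot place a summit to within a gene this small.

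**Figure D2:**
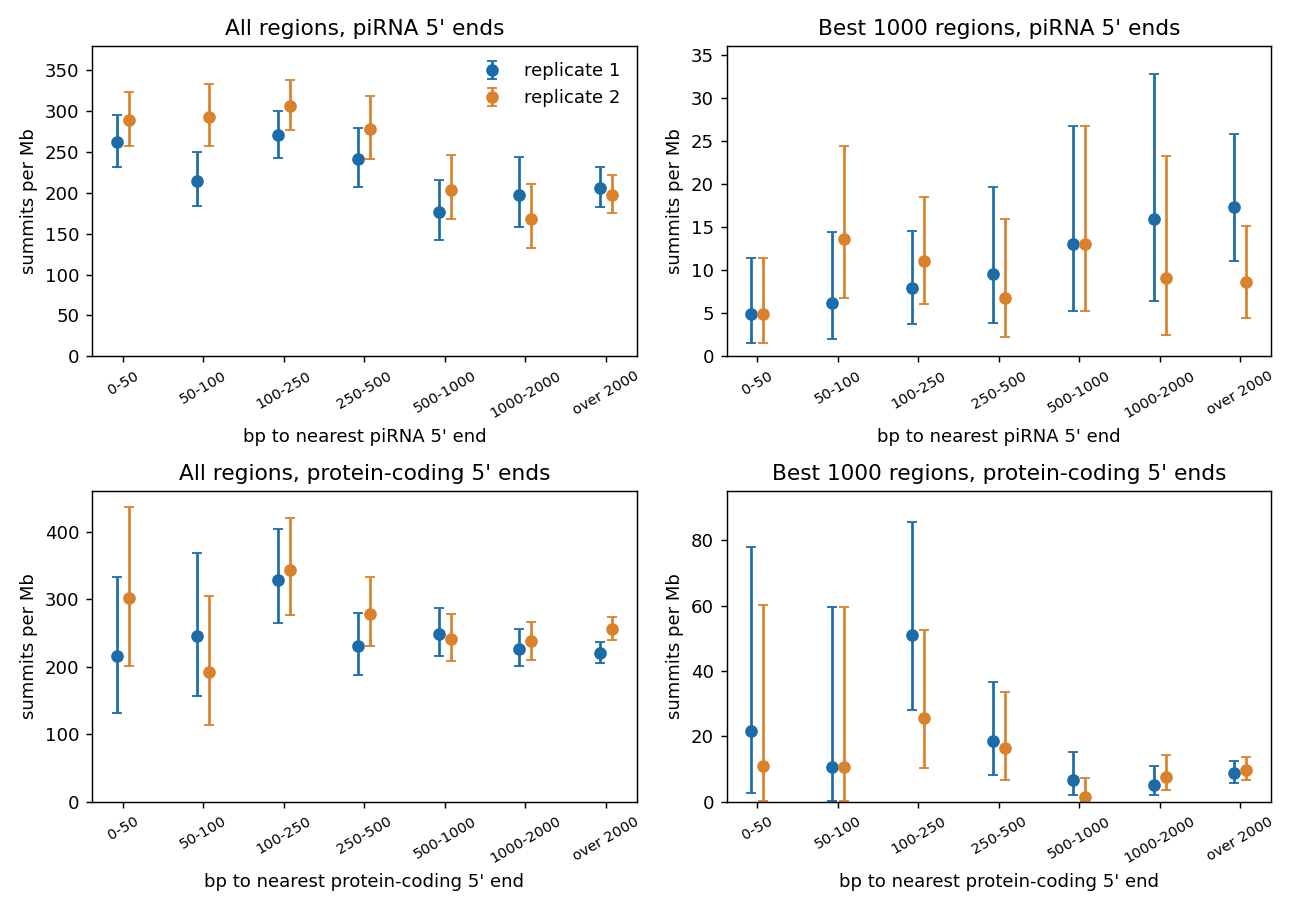
Summits per Mb of domain sequence (linear axes) by distance in bp to the nearest piRNA 5′ end (top) and protein-coding 5′ end (bottom), over all regions (left) and the best 1000 of each list (right), with exact Poisson 95% intervals. Replicate 1 is blue and replicate 2 orange. Over all regions the bands within 500 bp of piRNA 5′ ends are the higher ones, least clearly at 50 to 100 bp in replicate 1 (215 per Mb), and the best regions are densest from 100 to 250 bp of protein-coding 5′ ends, at 51.1 and 25.5 per Mb.

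In the replicate lists, density also went with how many piRNA genes lay around. Bases with no piRNA 5′ end within 1000 bp had 204 summits per Mb in replicate 1, those with 1 to 4 had 233, those with 5 to 9 had 237, those with 10 to 14 had 262 and those with 15 or more had 281. In replicate 2 the same steps held 191, 247, 292, 327 and 294 per Mb, the last over 0.15 Mb only. The order was unbroken in replicate 1 and broken at the last step in replicate 2, and that step holds only 42 and 44 regions. The pooled list showed no order, with 26.8, 32.6, 25.6, 33.3 and 26.7 per Mb. Base composition moved along with it, since the mean GC content of the surrounding 150 bp went from 36.7% with no piRNA gene to 27.9% with 15 or more.

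**Figure D3:**
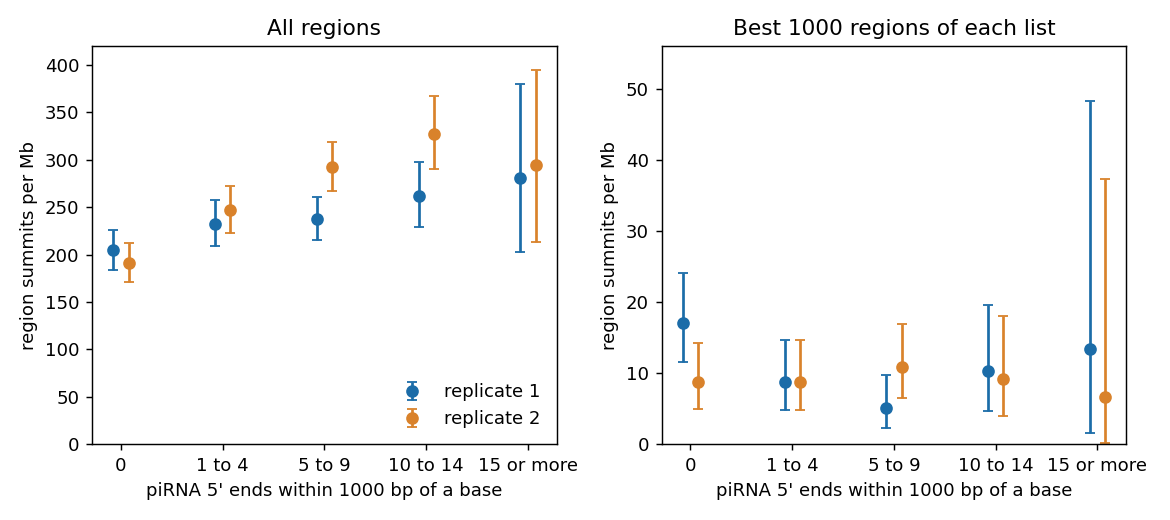
Summits per Mb (linear axes from 0) against the number of piRNA 5′ ends within 1000 bp, for all regions (left) and for the best 1000 of each list (right), with exact Poisson 95% intervals. Replicate 1 is blue and replicate 2 orange. Over all regions the densities go from 204 and 191 with none to 262 and 327 with 10 to 14, and the best regions show no such order.

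Windows of 150 bp within 250 bp of a piRNA 5′ end had a mean GC content of 29.9%, against 36.1% in those farther away. Within the same bands of GC content, promoters included, the density near piRNA 5′ ends was the higher one in 5 of 6 bands in replicate 1 and in 6 of 6 in replicate 2. GC content can still differ inside a band, and neither these bands nor the part of GC content in the result was tested. From 30 to 35% GC, for example, replicate 1 had 268 against 201 per Mb and replicate 2 had 283 against 211. The exception in replicate 1 was the band from 45% GC upward, with 232 against 260. Depth, mappability and coverage of the control along these domains are not held in the lists, and their part in the result was not tested.

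No excess of the strongest regions was called, either in the domains as a whole or near piRNA 5′ ends. Ranked by the authors' signal over all chromosomes, 65 of the 1431 members were among the best 1000 in replicate 1, or 4.54%, beside 4.43% of all regions in that list. In replicate 2 it was 58 of 1584, or 3.66%, beside 4.47%. These shares of the members lie on either side of the background. In density, the best regions were above the rest of chromosome IV in both replicates, but neither ratio passed. The ratio was 1.17 in replicate 1 (interval 0.845 to 1.62, adjusted exact binomial p = 0.451). It was 1.16 in replicate 2 (interval 0.820 to 1.63, adjusted exact binomial p = 0.470).

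Among these best regions, replicate 1 had fewer near piRNA 5′ ends than elsewhere in the domains, 20 against 45, a density ratio of 0.443 with an interval of 0.248 to 0.765 (adjusted exact binomial p = 0.00486). Replicate 2 had 30 against 28, a ratio of 1.07 with an interval of 0.616 to 1.85 (adjusted exact binomial p = 0.935). The replicates differed here and nothing was called. As shares of the members, 2.54% near piRNA 5′ ends and 7.0% elsewhere were among the best 1000 in replicate 1, and 3.25% and 4.23% in replicate 2. In the pooled list 92 regions lay near piRNA 5′ ends and 87 elsewhere, a ratio of 1.05 (interval 0.777 to 1.43, adjusted exact binomial p = 0.835).

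Members were found again in the other replicate about as often as regions elsewhere. In replicate 1, 478 members or 33.4% were overlapped by at least 1 bp in replicate 2, beside 31.2% of the whole list. In replicate 2 it was 482 or 30.4%, beside 31.5%. Near piRNA 5′ ends the shares were 34.1% in replicate 1 and 29.0% in replicate 2, and elsewhere in the domains 32.5% in both. Most listed regions near piRNA genes were thus listed in a single replicate. The median signal rank of the members stood at 46.3% of the list in replicate 1 and 50.4% in replicate 2, beside 49.6% and 50.2% in the rest of chromosome IV.

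The pooled list had 28.9 summits per Mb in the domains and 25.1 in the rest, a ratio of 1.15 (interval 0.95 to 1.39, adjusted exact binomial p = 0.245). Of the 179 pooled members, 142 were overlapped in both replicates, and 16 of these by a best-1000 region in both. In the rest of chromosome IV it was 226 of 283, or 79.9% beside 79.3% in the domains, with 24 in the best 1000 of both. In the domains, 3 of the 92 pooled regions near piRNA 5′ ends were among those 16, and 13 of the 87 farther away. The signals of the overlapping regions had a Spearman correlation of 0.08 between replicates over the 142 members and 0.12 in the rest of chromosome IV. It was 0.79 over the 14 IDR peaks and -0.15 without them. IDR selects peaks by agreement of replicate ranks, so the value of 0.79 is not independent of that selection. The cause of the contrast was not tested. These are correlations across regions of the same libraries, and the pooled list was called on both replicates together.

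**Figure D4:**
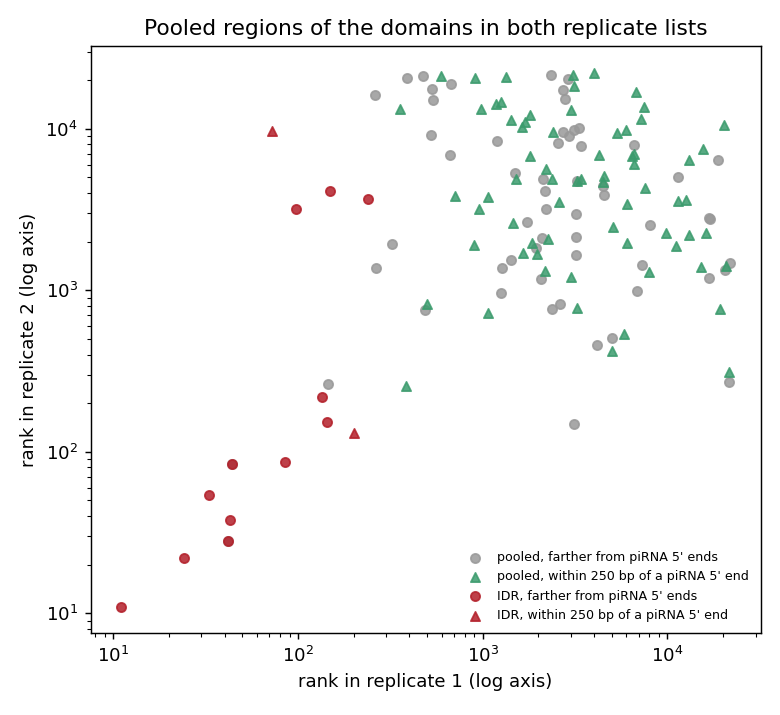
Signal rank in replicate 1 against rank in replicate 2 (log axes, 1 is the strongest) for the 142 pooled members found in both lists. IDR peaks (red) lie along the lower left apart from 4 that rank beyond 3000 in replicate 2, and pooled regions near piRNA 5′ ends (green triangles) spread over the upper right.

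IDR peaks were spread over both kinds of stretch. The 14 in the domains made 2.26 per Mb and the 18 in the rest 1.59, a ratio of 1.42 with an interval of 0.652 to 3.02 (adjusted exact binomial p = 0.451), and so no difference was detectable with so few peaks. They were 7.82% of the pooled members, beside 7.36% of the whole pooled list. The left domain held 9 and the right 5. By position, 10 lay in the window of a protein-coding promoter, 3 in introns and 1 outside genes, while all 18 in the rest of chromosome IV lay in promoter windows. By their distance to piRNA genes, 2 of the 14 lay within 250 bp of a piRNA 5′ end, a distance that takes in 50.1% of the bases of the domains.

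The strongest peak of the domains was 39 bp upstream of Y73B6BL.29, at chrIV:6321807-6321978. Its signal was 97.9 in replicate 1, 67.0 in replicate 2 and 160 in the pooled list, and it ranked 11 in each replicate and 9 in the pooled list. The next, 233 bp upstream of C49A9.10, had 81.8, 53.0 and 133 and ranked 24 and 22. Both are far up every list, and neither has a piRNA 5′ end within 250 bp. The nearest piRNA gene of the first lies 14136 bp away. Signals are the authors' and are on a scale of their own in each list.

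The pair in the Y65A5A.2 intron, whose sequences are printed above, ranked 30 and 36 in the pooled list. Their signals were 74.9 and 65.7 in replicate 1 and 39.0 and 42.8 in replicate 2. Their nearest piRNA gene, 21ur-4958, lies 17536 bp from the nearer one, so they are among the strongest members although they lie in a stretch of the right domain without piRNA genes nearby. Their order differs between the replicates.

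The following peaks sat at promoters. One lay 147 bp upstream of Y17G9B.5 and 315 bp upstream of rpl-20, which encodes a protein of the large ribosomal subunit, with signals of 65.8 in replicate 1 and 47.0 in replicate 2. One lay 329 bp upstream of F29B9.11 and 461 bp upstream of jmjd-1.2, a histone demethylase gene, with 65.2 and 31.8. One lay 203 bp upstream of rom-4, of the rhomboid family of membrane proteases, with 50.5 and 31.1. The last of these is in the right domain, with 3 piRNA 5′ ends within 1000 bp, and the other peaks of this group are in the left domain. Peaks 246 bp upstream of W03F8.4, and 226 bp upstream of cest-5.1 and 242 bp upstream of its neighbour C01B10.9, had 42.3 and 40.5 in replicate 1 and 22.1 and 24.7 in replicate 2.

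Both IDR peaks near a piRNA 5′ end had features of their own. That at hda-6, a histone deacetylase gene, lay 55 bp upstream of its 5′ end, 198 bp upstream of F41H10.4 and 58 bp upstream of the 5′ end of 21ur-11261. Its signal was 54.7 in replicate 1, at rank 72, and 9.92 in replicate 2, at rank 9719. The piRNA 5′ end and the protein-coding ones lie within a single region width, so the list cannot tell which it belongs to. The other was the one IDR peak of the domains outside protein-coding genes and their promoter windows. It lay 224 bp upstream of 21ur-8889, with 15 piRNA 5′ ends within 1000 bp and the nearest protein-coding 5′ end, of Y105C5A.1, at 6584 bp. Its signal was 35.2 in replicate 1, at rank 201, and 26.1 in replicate 2, at rank 131, so it stood well up in both. Its 150 bp have a GC content of 52.7%, against a mean of 29.9% for windows near piRNA 5′ ends.

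Replicate 2 was weak at 3 further IDR peaks. They lay 323 bp upstream of sqd-1, whose product is related to RNA-binding hnRNP proteins, 672 bp upstream of usp-4, of the ubiquitin-specific proteases, and in an intron of ari-1.4, of the Ariadne ubiquitin ligases. Their signals were 48.2, 32.2 and 40.2 in replicate 1, at ranks 98, 238 and 149. In replicate 2 they were 12.9, 12.6 and 12.2, at ranks 3196, 3662 and 4131. Together with hda-6 these are the 4 of 14 IDR peaks in the domains that were outside the best 1000 of replicate 2, while all 14 were within the best 1000 of replicate 1.

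**Figure D5:**
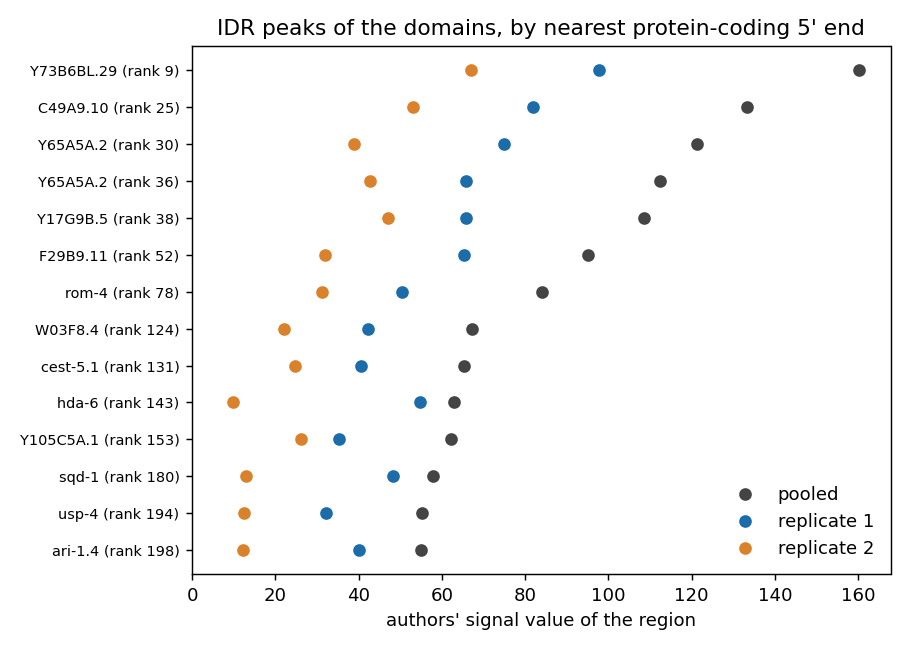
The authors' signal value (linear axis from 0, a scale of its own in each list) of the 14 IDR peaks in the domains, for replicate 1 (blue), replicate 2 (orange) and the pooled list (black), by nearest protein-coding 5′ end and pooled rank. Signals run from 160 to 55 in the pooled list, and hda-6, sqd-1, usp-4 and ari-1.4 are lowest in replicate 2, at 9.92 to 12.9.

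Below the IDR peaks, the 10 strongest pooled regions were of mixed position. The first lay 1307 bp upstream of F52G2.3, with a pooled signal of 52.8 and ranks of 145 in replicate 1 and 262 in replicate 2. Another, at jmjd-1.2, and one at Y17G9B.5 are overlapped by the same replicate regions as the IDR peaks next to them and add no separate site. Those 425 bp upstream of lin-66, a gene of developmental timing, and in a coding exon of mtrf-1L had pooled signals of 48.1 and 41.5, with ranks of 264 and 322 in replicate 1 and 1377 and 1930 in replicate 2. That 158 bp upstream of mrps-7, a mitochondrial ribosomal protein gene, and 313 bp upstream of Y57G11C.3 had rank 251 in replicate 1 and no overlap in replicate 2. The region nearest to unc-44, an ankyrin gene 1157 bp away, had ranks of 1252 and 956. Near piRNA 5′ ends lay 2 others of this group, at 21ur-6898 and 21ur-2550.

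Near piRNA 5′ ends, the strongest pooled regions after hda-6 and 21ur-8889 were much weaker than the leading peaks. One lay 230 bp downstream of the 5′ end of 21ur-6898, 12742 bp from C31H1.2, with signals of 26.7 in replicate 1 and 21.3 in replicate 2, at ranks 386 and 254. One lay 28 bp upstream of 21ur-2550, 20966 bp from Y105C5A.1285, with 24.5 and 16.5 at ranks 502 and 822. One lay 22 bp downstream of the 5′ end of 21ur-7263, near Y37A1B.7, with 22.3 and 12.4 at ranks 710 and 3835. Of the 3, the first and second were in the best 1000 of both replicates. In the single lists, a region of rank 355 in replicate 1 lay in a coding exon of Y43D4A.6 and 136 bp upstream of 21ur-667. One of rank 189 in replicate 2 lay 113 bp upstream of 21ur-7170 and 3066 bp upstream of lip-1, a MAP kinase phosphatase gene, and replicate 1 did not overlap it.

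The pooled region with the most piRNA genes around it had 17 within 1000 bp, with its summit 65 bp downstream of the 5′ end of 21ur-14925. Its signal was 16.9 in replicate 1, 12.7 in replicate 2 and 27.8 in the pooled list, where it ranked 1440. It lies less than 3 kb from the IDR peak at 21ur-8889, and is far below it in every list.

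Protein-coding promoters held more regions per base than the rest of the domains, both over all regions and in the pooled list. Over all regions, the promoter windows of the domains had 264 summits per Mb against 224 elsewhere in replicate 1 (ratio 1.18, interval 1.03 to 1.35, adjusted exact binomial p = 0.0374). Replicate 2 had 294 against 248 (ratio 1.19, interval 1.04 to 1.35, adjusted exact binomial p = 0.0200). The pooled list had 45.8 against 25.5 (ratio 1.79, interval 1.26 to 2.52, adjusted exact binomial p = 0.00351). Both were called, and both calls were lost when regions overlapping IDR peaks were left out, at mean ratios of 1.14 (weaker adjusted exact binomial p = 0.159) and 1.38 (adjusted exact binomial p = 0.170). The replicate call was also lost, at ratios of similar size, in the left (1.16) or right domain alone (1.19) and with a window of 500 bp upstream to 100 bp downstream (1.23). With that window the pooled ratio was 2.58 (adjusted exact binomial p = 1.9e-05).

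Among the best 1000 regions, promoter windows held 25 of 65 members in replicate 1 and 13 of 58 in replicate 2. The density ratios were 3.15 (interval 1.83 to 5.32, adjusted exact binomial p = 0.00011) and 1.46 (interval 0.721 to 2.75, adjusted exact binomial p = 0.328). This was not called, since replicate 2 did not pass. With the shorter window it was, at a mean ratio of 3.55 (weaker adjusted exact binomial p = 0.0332). The densest band lay from 100 to 250 bp of a protein-coding 5′ end, with 328 and 343 summits per Mb over all regions and 76.6 in the pooled list.

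No difference was called between promoters inside the domains and promoters elsewhere on chromosome IV. Replicate 1 had 264 and 263 per Mb (ratio 1.00, interval 0.867 to 1.16, adjusted exact binomial p = 0.971), and replicate 2 had 294 and 257 (ratio 1.15, interval 0.997 to 1.32, adjusted exact binomial p = 0.0972). Outside promoters the ratios of domains to rest were 1.06 (interval 0.980 to 1.14, adjusted exact binomial p = 0.245) and 1.19 (interval 1.11 to 1.28, adjusted exact binomial p = 1.06e-05). Since replicate 1 did not pass, the latter was not called.

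By annotation, the members of the replicate lists lay close to the shares of the bases, and the pooled members were shifted towards promoter windows. Promoter windows make up 16.6% of the domains and held 18.9% of the members of replicate 1, 19.1% of replicate 2 and 26.3% of the pooled list. Introns make up 27.6% and held 29.1%, 28.0% and 25.7%. Sequence outside protein-coding genes makes up 40.2% and held 35.7%, 38.3% and 30.7%. The piRNA 5′ ends are placed otherwise, with 53.5% outside protein-coding genes, 33.2% in introns and 11.1% in promoter windows. The median distance of members to the nearest piRNA 5′ end was 209 bp in replicate 1, 175 bp in replicate 2 and 230 bp in the pooled list, beside 249 bp for all domain bases. To the nearest protein-coding 5′ end it was 2096, 2284 and 1757 bp, beside 2268 bp for all domain bases.

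The upstream motif of piRNA genes was about as frequent under the members as in the domains at large. The exact core CTGTTTCA, searched on both strands, was in 11% of all 150 bp windows that tile the domains and in 1.14% of those in the rest of chromosome IV. It was in 10.8% of windows around the members of replicate 1 and 11.2% of replicate 2, near the share of the tiles. Around members within 250 bp of a piRNA 5′ end it was in 18.4% and 17.1%, beside 19.7% of the tiles there. Of the best-1000 members, 2 of 65 in replicate 1 and 3 of 58 in replicate 2 held it, and 0 of the 14 IDR peaks. GAGTACAC, with up to 1 mismatch, was in 5.33% of tiles, 7.82% of pooled members and 28.6% of the IDR peaks. CTAGGCCA was in 3.26%, 5.59% and 35.7%. Without the IDR peaks the pooled members held them in 6.06% and 3.03%. Pooled regions in the rest of chromosome IV, with IDR peaks kept in, held them in 12% and 10.6%, beside 5.92% and 4.22% of the tiles there. Since the elements came from IDR peaks of odd rank, the even-ranked ones were not used to find them, and 3 of those 9 held either element. Of these 3, the pair in the Y65A5A.2 intron are near copies of one stretch. A match is only a description, and a window without one says nothing of a factor.

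Protein-coding genes of the domains had regions in their promoter windows about as often as those of the whole genome. A region of the replicate 1 list lay in the promoter windows of 28.6% of the 941 protein-coding genes, beside 30.1% over the genome, and one of replicate 2 in 31.6%, beside 28.9%. For the pooled list it was 6.06%, beside 6.66%. Pooled regions were in the windows of 1 of 5 ribosomal protein genes (rpl-20), 1 of 9 genes of the major sperm proteins (msp-55), 0 of 5 nuclear receptor genes, 0 of 9 C-type lectin genes, 0 of 7 F-box genes and 0 of 23 chemoreceptor genes of the srx, str, srh and sri classes. Other serpentine receptor genes of the domains, chosen after their values were seen, did have one, namely srz-42, srsx-15, srv-30, sru-11 and srv-27, at pooled ranks from 1235 to 2495. Genes of these classes without a region were not counted, so no share can be set beside the background. In the rest of chromosome IV, 8 of 12 ribosomal protein genes and 13 of 41 snoRNA genes had one. At the background share, counts of 0 among so few genes set no family apart. Among small RNA genes of the domains it was 3 of 41 for tRNA (WBGene00014560, WBGene00014597 and WBGene00014598), 1 of 18 for snoRNA (C01B10.48) and 1 of 16 for snRNA (smy-9). For the piRNA genes themselves, with the same window, it was 499 of 14204, or 3.51%. Windows of neighbouring piRNA genes overlap, so a single region can count for many of them.

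Genes of the piRNA pathway held listed regions at about the rate of other genes. Of 22 listed genes, 20 matched the annotation by symbol and none lies in the domains. A region lay in the windows of 7 in replicate 1, 5 in replicate 2, 1 in the pooled list and 0 in the IDR list. These shares of 20 are near the background given above. The pooled region was that of tofu-1, a gene required for piRNA production, at rank 1306. No pooled region was in the window of prg-1, the piRNA Argonaute gene, or of prde-1, snpc-4, tofu-4 or tofu-5, which encode factors of piRNA transcription.

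The gene of the tagged protein lies in the right domain itself, at chrIV:17039055-17039645 on the minus strand. Within 20 kb of it, where there are 135 piRNA genes, replicate 1 listed 8 regions, or 200 per Mb with an exact Poisson 95% interval of 86.3 to 394. Replicate 2 listed 18, or 450 per Mb with an interval of 267 to 711. The pooled list had 2, of which the stronger ranked 721, and the IDR list 0. No region of the replicate or pooled lists had its summit within the gene. The transgene adds copies of this DNA, and its part in these counts was not tested. With the stretch left out, the density ratios near piRNA 5′ ends outside promoters were 1.33 in replicate 1 and 1.47 in replicate 2.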

How the data were processed

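The deposited lists of regions, on build ce11, came from chromatin immunoprecipitation and sequencing of 2 biological replicates. Per the labels, the replicate and pooled lists hold peaks and background for IDR. Neither the aligner, the peak caller nor the IDR threshold is stated (not given in the sources used here), and the control data were not analysed here. The authors deposited a signal value per region, of unstated scale, which served here for ranks inside each list. The deposited −log10 q-value was 2.66 for all 14 IDR peaks of the domains and was not used to rank. Since no read counts are listed, depth is unknown, and the intervals reflect only how many regions were counted.

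Genes and 5′ ends came from Ensembl release 115 (WBcel235) and sequence from the RefSeq genome. Densities were compared by exact binomial tests with Clopper-Pearson intervals. These were tried on simulated counts of independent regions in the domains and the rest. Such counts leave out the overlap between regions of a list, so they do not check the p-values for it. Named genes were those of the IDR peaks, the next 10 pooled regions, the strongest regions near piRNA 5′ ends, the region with the most piRNA genes, set families and pathway genes. One of these pooled regions is not reported here. Members and lists were chosen with earlier results of these data known. Alternatives changed windows, distances, rank limits, domain limits and the rest of chromosome IV used, or left out a replicate. Tests ran in SciPy 1.17.1 and tables in pandas 2.3.3 with NumPy 2.4.6, under Python 3.11.15, and plots were drawn with Matplotlib 3.10.9.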

Additional observations from a re-analysis of the deposited data

How the results depend on the processing

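Over all alternatives, 96 values kept their direction and their side of the threshold, 11 lost a call, 7 gained one and 1 turned direction, which was the uncalled ratio of best-1000 regions near piRNA 5′ ends (0.687, and 1.07 without replicate 1). Values are mean ratios over both replicates. The higher density near piRNA 5′ ends lost its call at 100 bp (1.14, and 1.20 outside promoters), in the left domain alone (1.23) and among regions overlapped by the other replicate (1.26). The higher density in promoter windows lost it with the shorter window (1.23), with domain limits moved inward (1.16), without regions overlapping IDR peaks (1.14, and 1.38 in the pooled list), in the left (1.16) or right domain alone (1.19) and among overlapped regions (1.31). The single-domain and overlapped-region alternatives were chosen after seeing the data. Calls were gained by best-1000 promoter windows with the shorter window (3.55), and with the left end of chromosome IV as the rest by the domains as a whole (1.20) and outside promoters (1.22). Leaving out a replicate gave 1.03 to 1.17 for the domains against the rest, 1.06 to 1.19 outside promoters, 1.46 to 3.15 for best-1000 promoter windows and 0.443 to 1.07 for best-1000 regions near piRNA 5′ ends. The causes were not tested. No paired analysis was possible because there is 1 group.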

Other observations

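In windows of 20 kb along the domains, ranked by the smaller of the replicates' counts, the first was that from 6.84 to 6.86 Mb, with 13 summits in replicate 1, 11 in replicate 2 and 3 in the pooled list, among 13 piRNA genes. The stretch from 6.32 to 6.34 Mb, which has 0 piRNA genes and holds the peaks at Y73B6BL.29 and sqd-1, had 10 and 9. Dense stretches thus occurred with and without piRNA genes. These windows were picked for their counts and were not tested. In the domains, 9 of 16 snRNA genes (56.25%) had a region of replicate 1 in their window and 4 of 16 (25%) a region of replicate 2. In the rest of chromosome IV it was 2 and 5 of 25. Over the genome, 30.1% and 28.9% of protein-coding genes had one, so replicate 1 was above that share and replicate 2 below it. These counts were not tested.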
